A study of Mus musculus with 22 samples.

Results

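The genes described here are those of the cytosolic ribosomal proteins, which together with ribosomal RNA form the particle that translates messenger RNA. A gene was a member when its platform symbol was Rpl or Rps followed by a number, with an optional letter a, l, x or y, or was Rplp0, Rplp1, Rplp2 or Rpsa. The S6 kinases and the symbols marked as pseudogenes were left out. This gave 59 genes of the 19938 genes with a probe set that names 1 symbol, and the brightest such probe set stood for each gene.

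Ribosomal proteins of the small subunit (40S) carry the prefix Rps and decode the message, and those of the large subunit (60S) carry the prefix Rpl and surround the site of peptide bond formation. A ribosome holds a single copy of nearly all of them, so cells need them in matched amounts. In vertebrates their messages begin with a cytosine followed by a run of pyrimidines, the 5′ terminal oligopyrimidine (TOP) tract, through which the mTOR pathway adjusts their translation. Several of them serve as reference genes in expression assays of kidney and other tissues because their levels are taken to be steady.

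RNA came from kidneys of wild-type mice (WT) and of clock(-/-) mice (KO), which lack the circadian transcription factor Clock, at zeitgeber times (ZT) 0, 4, 8, 12, 16 and 20 h. Both genotypes descended from heterozygous breeding pairs, were kept for 2 weeks in 12 h of light and 12 h of dark, and then spent 30 h in darkness before sacrifice, so the controls share that treatment. Each of the 22 Affymetrix arrays, 11 per genotype, held RNA combined from 2 or 3 mice, and the labels give neither age nor sex nor strain. The labels number the pools 1 and 2 and do not say what a number stands for, nor that pools came from separate litters or days. At WT ZT8 and KO ZT16 there was 1 pool only, labelled pool 1. Those arrays, called the lone pools below, lay with the pool 2 arrays in the ribosomal protein genes. The count and median of the members' pool differences, the component shares and the genotype calls are also given without them. Fitted pool differences of single genes and of lists count them as pool 1. All p-values therefore rest on how far pools differ, and that spread may be technical.

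Values are log2 expression, so a difference of 1 is a doubling. Array medians lay between 5.88 and 6.01 and correlations between arrays from 0.980 to 0.994. Kidney markers were high on all arrays: Umod, of the thick ascending limb, read 12.95 to 13.19, and Slc34a1, the phosphate carrier of the proximal tubule, 13.09 to 13.19. Clock itself read higher in the arrays labelled KO. Its probe set had a fitted mean of 8.83 in WT and 8.96 in KO, a called difference of 0.13 ± 0.04 (SE; limma adjusted p = 0.040) against the direction of the label. A probe set that sums up a whole transcript need not fall when some of its exons are missing, so it checks no genotype label. Of 17 circadian clock genes, a list that also holds Dbp, Tef, Hlf and Nfil3, 11 were called between the genotypes, Clock included. Among the called was Arntl, the partner of Clock, which was higher in KO by 1.01 ± 0.10 (SE; limma adjusted p = 2.4e-06). The number of arrays limits the precision.

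Of the 59 members, 57 passed the filter on dim probe sets, whose lower limit was a mean of 5.21. Rpl39l, at 3.33, and Rpl3l, at 5.10, did not. The 57 comprise 22 genes of the small and 35 of the large subunit. RefSeq lists 81 protein-coding symbols that satisfy the naming rule, of which 58 were measured, 16 had only probe sets shared between several symbols, and 7 were not listed. Rps4l, a copy of Rps4x, is listed in RefSeq as a transcribed pseudogene. Ribosomal protein genes have many processed pseudogenes and near-identical copies, so a probe set may also read RNA of a copy, and 39 members had more than 1 probe set (up to 14, for Rps12).

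The start of the message carries the TOP tract, so the 30 bases around the annotated start are shown for the members with the largest differences between pools that had a RefSeq entry, and for members with differences near 0. They come from the RefSeq promoter table of GRCm38.p6, read 5′ to 3′ on the gene's strand, with 15 bases before the start and 15 from it on. Capitals mark a C followed by at least 4 bases that are each C or T, beginning within 10 bases of the start and not preceded by C or T.
Rps28 (chr17:33824548-33824577, minus strand): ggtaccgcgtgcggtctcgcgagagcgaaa
Rps4x (chrX:102189377-102189406, minus strand): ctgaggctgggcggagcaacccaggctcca
Rpl37a (chr1:72711245-72711274, plus strand): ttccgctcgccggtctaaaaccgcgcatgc
Rps19 (chr7:24884898-24884927, plus strand): gagggagcggggtgtggagggCTCTCCCac
Rps6 (chr4:86857353-86857382, minus strand): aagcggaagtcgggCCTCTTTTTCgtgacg
Rpl19 (chr11:98026695-98026724, plus strand): tgaccaaacgCCCTCactgcgcatgtgcgc
Rps2 (chr17:24720048-24720077, plus strand): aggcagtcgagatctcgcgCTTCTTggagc
Rplp0 (chr5:115559452-115559481, plus strand): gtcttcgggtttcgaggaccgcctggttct
Of these, Rps19, Rps6, Rpl19 and Rps2 show such a tract, and Rps28, Rps4x, Rpl37a and Rplp0 do not within this window. Rps19 had 3 entries and Rpl19 had 2, and the entry with the tract nearest the start is shown. The other members shown had 1 entry each.

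Promoter entries were found for 45 of the 57 members. A tract by this definition lay near the start in 20 of the 45 (44.4%), against 26.0% of 27025 genes with an entry. A C with at least 4 following pyrimidines, whatever preceded it, lay exactly at the annotated start in 10 (22.2%), against 3.01% of all genes. These 10 are not a part of the 20, as Rpl28, Rpl38, Rplp2 and Rps15a are among the 10 only. The tract near the start was held by 10 of 23 members called lower in pool 2 and by 10 of 22 other members, and the one exactly at the start by 3 of 23 and 7 of 22. The E-box CACGTG, the sequence that Clock and Arntl bind, which reads the same on both strands, occurred in the 300 bases around the start of Rpl14, Rpl19, Rpl23, Rpl34 and Rps19. That is 5 of 45 (11.1%), against 8.09% of all genes. These matches describe letters in a window and are not evidence of binding or of the true start.

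More ribosomal protein genes were called between the pools than in any other comparison made here. Of the 57, 28 were lower in pool 2 than in pool 1 and 0 were higher (limma with Benjamini-Hochberg adjustment over all genes, adjusted p under 0.05). Over all 13967 genes tested, 2.23% were called lower and 1.35% higher, or 3.59% in either direction. At an unadjusted p under 0.05 there were 35 members (61.4%), against 17.3% of all genes. The median member was lower in pool 2 by a log2 difference of -0.16, beside 0.01 over all genes. A negative difference was found in 52 members, against 6147 of the 13967 genes. By subunit, 15 of 22 small-subunit members and 13 of 35 large-subunit members were called, with medians of -0.25 and -0.09. Whether the subunits differ was not tested.

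Rps28, a small-subunit protein near the messenger RNA exit, moved most. On the 10 pool 1 arrays that have a pool 2 partner, its lowest, median and highest values were 10.30, 10.43 and 10.66, and on the 10 pool 2 arrays 9.70, 9.76 and 9.91. No pool 1 array with a partner reached down to a pool 2 array. The lone pools read 9.79 at WT ZT8 and 9.86 at KO ZT16, inside the range of pool 2. The fitted difference, pool 2 minus pool 1, was -0.60 ± 0.08 (SE; limma adjusted p = 0.0017), which is a 1.52-fold higher level in pool 1.

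Rps29, a zinc-binding protein of the small subunit that is used as a reference gene, showed the same separation. Its values were 11.34, 11.48 and 11.75 (lowest, median, highest) on the paired pool 1 arrays and 10.72, 10.88 and 10.93 on pool 2. The lone pools read 10.97 and 10.79. Its fitted difference was -0.55 ± 0.08 (limma adjusted p = 0.0017). Rps4x, the X-linked copy of the small-subunit protein S4, spanned 11.05 to 11.49 in paired pool 1 and 10.51 to 10.85 in pool 2, again without overlap, with a difference of -0.48 ± 0.08 (limma adjusted p = 0.0028). The related Rps4l spanned 7.11 to 7.64 and 7.26 to 7.63, with a difference of -0.01 ± 0.05 that was not called, but its second probe set differed by -0.19 and was called, so the copies are not shown to differ.

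**Figure D1:**
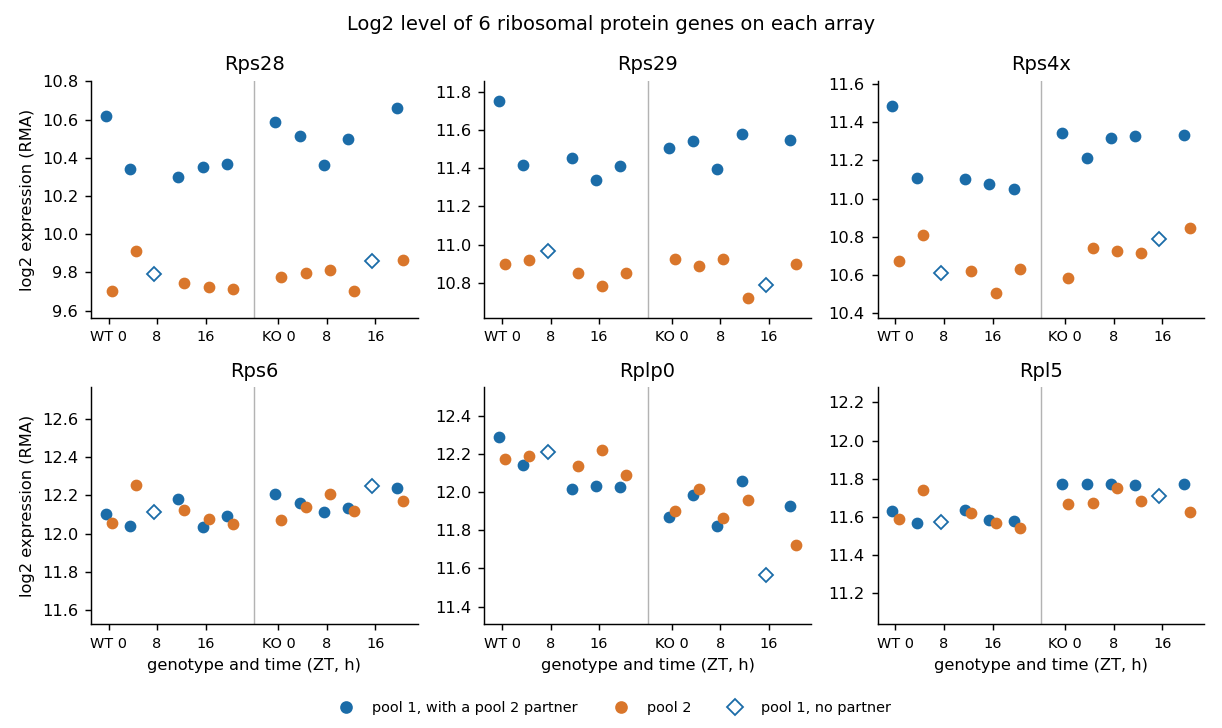
Log2 expression of 6 ribosomal protein genes on each of the 22 arrays, with WT arrays left and KO arrays right of the line and time within each; all panels span the same log2 range. Rps28, Rps29 and Rps4x read higher on every paired pool 1 array than on any pool 2 array, Rps6 shows no such gap, and Rplp0 and Rpl5 differ between the genotypes.

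The remaining called members with large differences came from both subunits. Rpl37a differed by -0.47 ± 0.07, Rps19, whose loss causes Diamond-Blackfan anaemia in humans, by -0.45 ± 0.07, Rps13 by -0.44 ± 0.09 and Rps14 by -0.43 ± 0.06. They were followed by Rpl27 (-0.39), Rps9 (-0.36), the p53-inducible paralog Rps27l (-0.34), Rpl26 (-0.32) and Rpl34 (-0.31). Among all called members the smallest difference was -0.15, for Rpl6. Each of the 12 with the largest differences was higher in pool 1 in 10 of 10 groups that had both pools.

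Other members did not separate the pools. Rps6, the substrate of the S6 kinases, spanned 12.04 to 12.24 on paired pool 1 arrays and 12.05 to 12.26 on pool 2, with a difference of -0.01 ± 0.03. Rpl19, often a reference gene, differed by -0.004 ± 0.027, Rps2 by 0.01 ± 0.03 and Rpl21 by 0.01 ± 0.04. None of these was called. Rps18, a further reference gene, differed by -0.06 ± 0.03 and was not called either. The stalk of the large subunit, which recruits elongation factors, is built from Rplp0, Rplp1 and Rplp2. Of these, Rplp2 was called at -0.20 ± 0.04 (limma adjusted p = 0.013), while Rplp0 differed by 0.02 ± 0.05 and Rplp1 by -0.01 ± 0.03. Rpl30 and Rpl12 had the highest positive differences, 0.10 ± 0.06 and 0.07 ± 0.06, and were not called. The reference genes Rpl13a and Rpl32 were not analysed here.

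**Figure D2:**
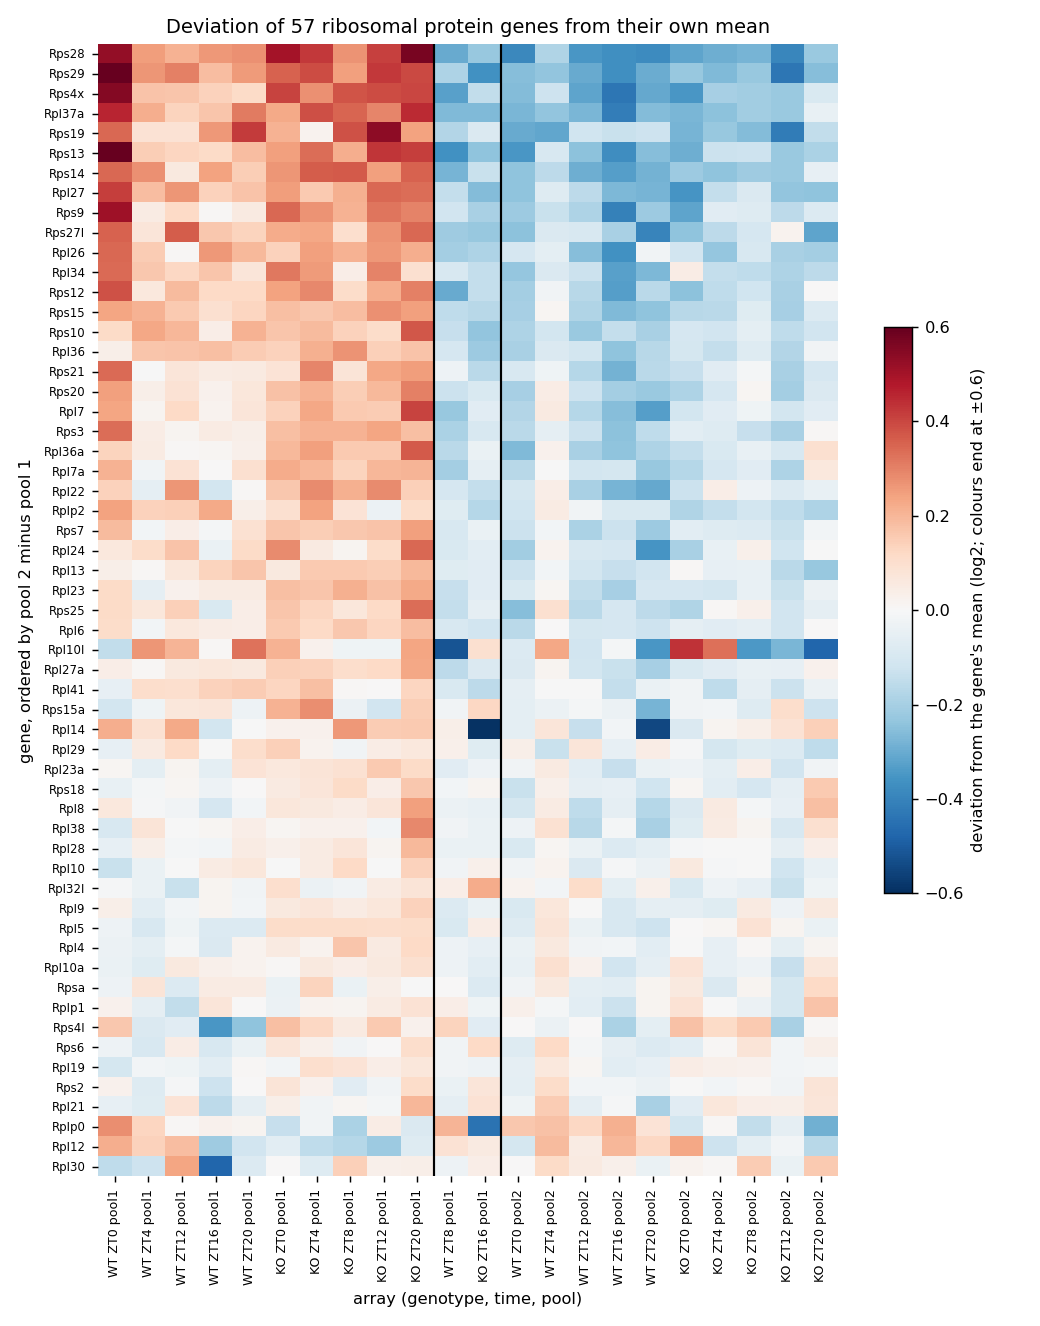
Deviation of each of the 57 ribosomal protein genes (rows, ordered by pool 2 minus pool 1) from its own mean over the 22 arrays (columns), in log2; black lines part the 10 paired pool 1 arrays, the 2 lone pools and the 10 pool 2 arrays. The upper rows are high on paired pool 1 arrays and low on the lone pools and on pool 2, and the lowest rows, from Rpl28 down, show little of this.

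Counted without a model, 23 of 57 members were higher in pool 1 than in pool 2 in all 10 groups with both pools, against 2.36% of all genes. In 17 members the lowest paired pool 1 array lay above the highest pool 2 array, against 0.788% of all genes. On the paired pool 1 arrays, 35 to 54 members were above their own mean and the member median deviated by 0.03 to 0.20. Of all genes, 43.8% to 54.2% were above their own mean on these arrays. On pool 2 arrays, 3 to 31 members were above their mean, against 41.4% to 56.8% of all genes, and the member median lay between -0.16 and 0.01. The array with 31 was WT ZT4 pool 2. Without it, the pool 2 arrays held 3 to 21. On the lone pools, 57% (WT ZT8) and 48.9% (KO ZT16) of all genes were above their mean. Of the members 8 and 11 were, with medians of -0.09 and -0.07. Both values lie within the pool 2 range and below every paired pool 1 array, although both arrays are labelled pool 1.

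**Figure D3:**
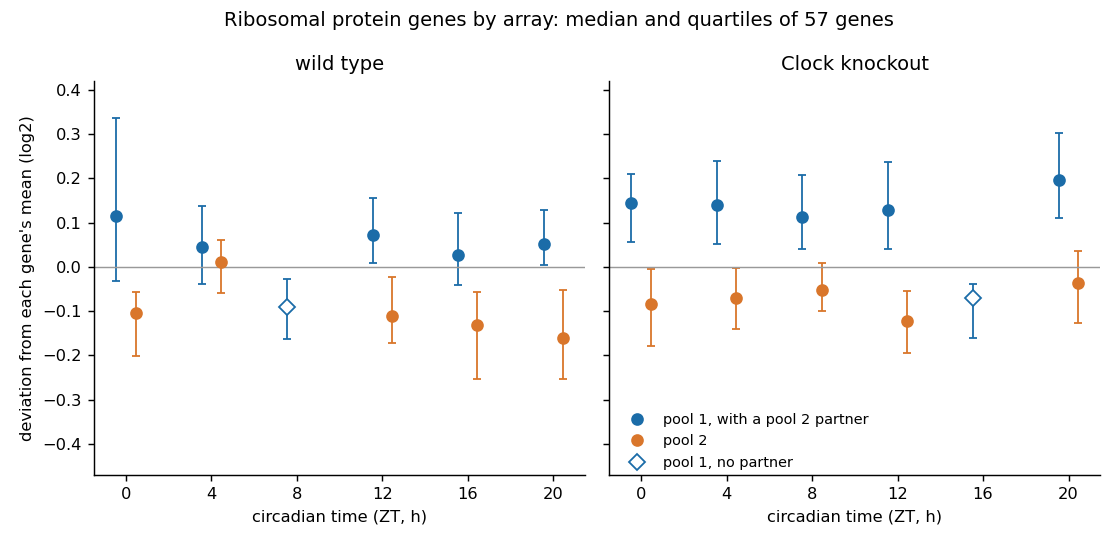
Deviation of the 57 ribosomal protein genes from their own means (median, with bars from the lower to the upper quartile over genes) on each array against circadian time, by genotype. Paired pool 1 arrays sit at 0.03 to 0.20, pool 2 arrays at -0.16 to 0.01 and the lone pools at -0.09 and -0.07, and no wave over time is visible beside that gap.

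The gap between pools was present at nearly all times in both genotypes. The median member was higher in pool 1 by 0.15 to 0.25 in 9 of the 10 groups, and by 0.01 at WT ZT4, where 29 of 57 members were higher in pool 1. In the other groups 46 to 54 members were. Of all genes, 47.6% were higher in pool 1 at WT ZT4 and 42% to 56.8% in the other groups. With a pool term for each genotype, the median member difference was -0.13 in WT and -0.19 in KO. In that fit 0 members were called in WT, 0 in KO and 0 for the difference of the terms (limma, adjusted), with 29, 37 and 1 at an unadjusted p under 0.05. Over all genes, 1 was called in WT, 1 in KO and 0 for the difference, with 9.97%, 12.5% and 3.31% of genes at that unadjusted threshold. The lone pools enter the main pool fit as pool 1. Without them the count was 32, with Rpl24, Rpl27a, Rpl41 and Rps25 added to the same 28, and the median difference was -0.20.

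Probe sets of a member mostly gave the same sign. Among the 39 members with more than 1 probe set, 36 had all their pool differences on 1 side of 0. Taken singly, 191 of the 215 probe sets were lower in pool 2, and 99 were called lower and 0 higher, against 1.59% of all single-symbol probe sets called lower. Some probe sets of a member held identical values, with 203 distinct among the 215, and these counts include the repeats. Of the 29 members that were not called, 5 had a dimmer probe set that was: Rpl23a, Rpl24, Rps25, Rps4l and Rpsa, named after their values were seen. In Rpsa, the laminin-binding protein of the small subunit, the brightest probe set differed by -0.02 between pools, and its other 4 by -0.23 to -0.44, each of them called.

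The members deviated from the fitted daily waves together from array to array, largely along with the pool difference. The first principal component held 80.1% of the variance of the member residuals, beside 27.8% over all genes, and the median correlation between pairs of members was 0.52, beside 0.01. Without the lone pools the shares were 82.0% and 28.1%. With a term for the pool number they were 58.9% and 31.5%, and with that term and without the lone pools 31.8% and 32.9%, so the members' share was then no higher than that of all genes. Within pool 1 arrays alone, lone pools included, they were 72.4% and 42.8%, and within pool 2 arrays alone 49.5% and 54.8%. The median correlation between members was 0.445 with the pool term, and 0.26 with that term and without the lone pools. It was 0.53 within pool 1 arrays alone and 0.38 within pool 2 arrays alone. For these fits the correlation was not computed over all genes, so it has no value to stand beside. These are descriptions over 22 arrays that share the pool difference, and genes are not independent replicates. Of the 57 members, 55 correlated positively with the mean of the others and 25 at 0.9 or more, led by Rps15 (0.98), Rps28 (0.98) and Rpl27 (0.98). Rpl12 (-0.32) and Rpl30 (-0.20) were negative. Rplp0 (0.10), Rplp1 (0.07), Rps4l (0.06) and Rpl32l (0.05) were near 0.

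The genes outside the set whose residuals were most like the members' mean over the 22 arrays came from several complexes. They were Eif3k, a subunit of initiation factor 3 (r = 0.986), Naca, a chaperone of nascent chains at the ribosome (0.983), Atp5l, a subunit of the mitochondrial ATP synthase (0.976), and Drap1, a transcriptional repressor subunit (0.976). The next, with equal values of 0.971, were Atp6v1e1 of the vacuolar proton pump and Ndufa5 and Ndufs5 of respiratory complex I. These residuals come from the fit without a pool term and so hold the pool difference. Each gene named here was also called lower in pool 2 (limma, adjusted p under 0.05).

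Other gene lists differed in how far they moved with the pool number. Of 79 oxidative phosphorylation subunits, 29 were called lower in pool 2 and 1 higher, with a median of -0.10. Uqcrh, of complex III, differed by -0.53 ± 0.08 and Ndufa5 by -0.31 ± 0.05. Of 37 proteasome subunits, 12 were lower and 0 higher, with a median of -0.07, among them Psma1 at -0.22 ± 0.04. Of 74 mitochondrial ribosomal proteins, 10 were lower and 2 higher, with a median of -0.04. Mrpl13 and Mrps12 differed by -0.44 ± 0.06 and -0.43 ± 0.06, and Mrps15 by 0.20 ± 0.03. All of these named genes passed the limma test over all genes.

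Further lists concern the making and use of ribosomes, and no test compared the lists. Of 13 elongation factors and other messages with a TOP tract, 1 was called lower (Naca, -0.34 ± 0.06) and 0 higher, with a median of -0.05. The difference was negative in 13 of 13, against 6147 of 13967 over all genes, and 4 of the 13 had an unadjusted p under 0.05. Of 30 initiation factors, 2 were called lower, Eif3k at -0.19 ± 0.04 and Eif3i at -0.20 ± 0.04, and 0 higher. Of 60 ribosome biogenesis factors, 3 were lower (Polr1c, Emg1 and Fbl) and 3 higher (Nop56, Rrp1 and Tsr1), with a median of 0.02. Of 32 genes of the mTOR pathway, 0 were lower and 1 was higher, Larp1, a protein that binds TOP tracts, at 0.23 ± 0.04 (limma adjusted p = 0.0068). Of 17 circadian clock genes, 0 were called in either direction, with 3 at an unadjusted p under 0.05.

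**Figure D4:**
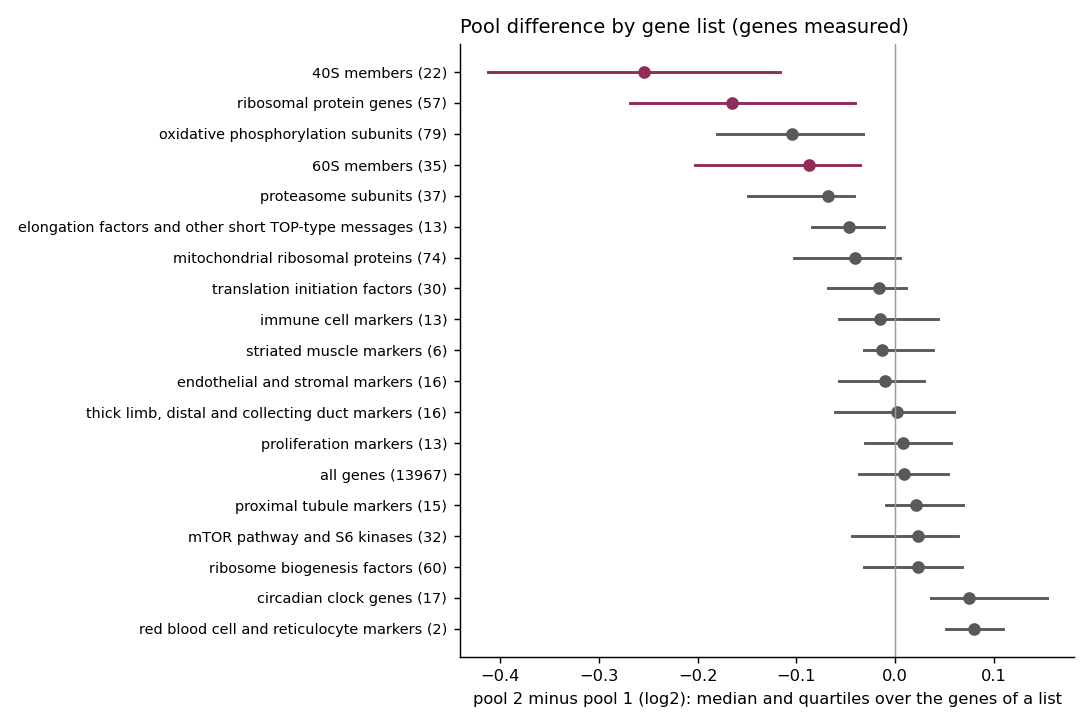
Pool 2 minus pool 1 in log2 for each gene list: points are medians and lines run from the lower to the upper quartile over the genes measured (number in brackets); ribosomal protein genes and their subunits are in purple. The ribosomal protein genes have a median of -0.16, oxidative phosphorylation subunits -0.10 and all genes 0.01.

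Markers of cell types were read beside this result. Of 13 immune, 13 proliferation, 15 proximal tubule, 16 endothelial and stromal, 6 striated muscle and 2 red cell markers that passed the filter, 0 were called by pool number in either direction. The 2 red cell markers were Alas2 and Slc4a1, with no globin gene among them, so they say little about blood content. Of 16 markers of the thick limb, distal tubule and collecting duct, 1 was called, Atp6v1g3 of intercalated cells, at -0.27 ± 0.06. At an unadjusted p under 0.05 there were 1, 0, 4, 0, 0, 0 and 4 markers in the order given, against 17.3% of all genes. With 3.59% of all genes called, lists this short would hold few calls, so these counts are no result about the markers. The median deviation of the immune markers spanned -0.13 to 0.18 on paired pool 1 arrays and -0.14 to 0.22 on pool 2, and that of the proximal tubule markers -0.02 to 0.02 and -0.13 to 0.05. That of the thick limb, distal tubule and collecting duct markers spanned -0.10 to 0.16 and -0.15 to 0.09. In whole kidney, fewer cells of a type and less RNA per cell cannot be told apart. The part of these markers in the pool difference was not tested.

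Between the genotypes, few ribosomal protein genes differed. Over the daily cycle 2 of 57 were called, 1 higher and 1 lower in KO (3.51%), against 9.14% of all genes (limma, adjusted p under 0.05). Of all genes, 5.23% were called higher and 3.9% lower. Without the lone pools 1 member, Rplp0, was called. At an unadjusted p under 0.05 there were 8 members (14.0%), against 25.1% of all genes. Of the 57 differences, 50 were positive, against 7225 of 13967 over all genes. The members moved together from array to array, so their signs are not independent. The members' median was 0.05, with quartiles of 0.02 and 0.08. The median over all genes was 0.00 with quartiles of -0.06 and 0.06. The median member difference was 0.08 within pool 1 arrays, 0.02 within pool 2 arrays, 0.03 without the KO ZT20 arrays, and 0.09 after array medians were subtracted.

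Rplp0, the anchor of the ribosomal stalk and a common reference gene, was lower in KO. Its lowest, median and highest values were 12.02, 12.14 and 12.29 over the 11 WT arrays and 11.57, 11.90 and 12.06 over the 11 KO arrays. The KO arrays were mostly below the WT arrays, and only KO ZT12 pool 1 reached into the WT range. The lowest KO value was that of the lone pool at ZT16. The fitted difference was -0.27 ± 0.05 (SE; limma adjusted p = 9.5e-04), and without the lone pools it was -0.23 ± 0.05 (adjusted p = 0.0064). Within pool 1 arrays alone it was -0.25 (adjusted p = 0.12) and within pool 2 alone -0.29 (adjusted p = 0.27), so the call was lost in each, with fewer arrays. A second probe set of Rplp0 gave -0.15.

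Rpl5, which binds 5S ribosomal RNA and with it the p53 regulator Mdm2, was higher in KO. Its values were 11.54, 11.58 and 11.74 over WT and 11.62, 11.75 and 11.78 over KO. The ranges overlapped, with WT ZT4 pool 2 the highest WT array. The fitted difference was 0.12 ± 0.03 (limma adjusted p = 0.018), and its 5 probe sets gave 0.12 to 0.18. Without the lone pools it was 0.11 (adjusted p = 0.076), within pool 1 alone 0.17 (0.060) and within pool 2 alone 0.04 (0.79), and the call was lost in all of these.

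Rplp0 and Rpl5 both lie on chromosome 5, as Clock does. The other 3 members there, Rpl6, Rpl9 and Rpl21, had differences of 0.06 ± 0.05, 0.06 ± 0.03 and 0.08 ± 0.04 and were not called. The part of the shared chromosome in the calls was not tested. Next by p-value came Rpl8, of the peptide bond site, at 0.10 ± 0.04 and Rpl12, of the stalk base, at -0.14 ± 0.06, with limma adjusted p of 0.12 and 0.13. Without KO ZT0 pool 2 both were called, at adjusted p of 0.045 and 0.043. Rpl3l, a muscle paralog below the filter, had a difference of -0.22 ± 0.06 and an adjusted p of 0.030 when no filter was set.

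**Figure D5:**
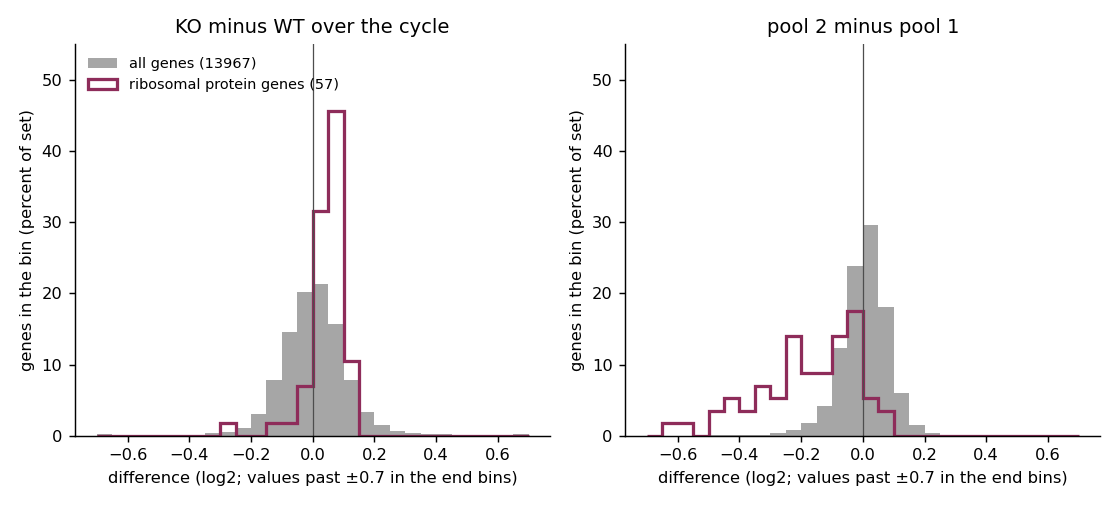
Share of genes by size of the KO minus WT difference (left) and of the pool 2 minus pool 1 difference (right), in log2, for all 13967 genes (grey) and the 57 ribosomal protein genes (purple outline). The genotype differences of the ribosomal protein genes sit close above 0, with a median of 0.05, and their pool differences reach from -0.60 to 0.10.

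Few genes that work with the ribosome were called between the genotypes. Of 30 initiation factors, 2 were higher in KO and 0 lower: Eif4b, which helps unwind messages, by 0.16 ± 0.04 (limma adjusted p = 0.0054), and Eif3f by 0.16 ± 0.04 (0.0098). Of 13 elongation factors and other TOP messages, 1 was higher, Nop53, by 0.13 ± 0.04 (0.025). Of 60 biogenesis factors, 0 were higher and 2 lower. Nhp2, of the particles that modify ribosomal RNA, differed by -0.25 ± 0.06 (0.0064) and Polr1e, of RNA polymerase I, by -0.14 ± 0.04 (0.032). In the mTOR list of 32 genes, Ddit4l, an mTOR inhibitor, was higher by 0.35 ± 0.07 (0.0021) and the kinase gene Mtor lower, with a difference of -0.28 ± 0.06 (0.0029). The 9.14% of all genes called is the level to set these counts against.

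No ribosomal protein gene was called at any single time. The limma fit of the group means gave 0 of 57 at each of the 6 times, against 0.0286%, 0.00716%, 0.0286%, 0.122%, 0.0143% and 1.75% of all genes from ZT0 to ZT20. At an unadjusted p under 0.05 there were 1, 0, 1, 0, 2 and 6 members. The share of all genes at that threshold was not counted for single times, so these counts are no result about the members. The median KO minus WT difference was 0.03 at ZT0, 0.01 at ZT4, 0.14 at ZT8, 0.02 at ZT12, 0.00 at ZT16 and 0.14 at ZT20. The ZT8 difference sets KO pools 1 and 2 against the lone WT pool, and the ZT16 difference the lone KO pool against WT pools 1 and 2. Rplp0 at ZT16 had -0.56 ± 0.11 (adjusted p = 0.14). Rpl14 at ZT20 had 0.43 ± 0.15 (adjusted p = 0.17), which became 0.70 ± 0.15 and was called (adjusted p = 0.038) without WT ZT20 pool 1, when WT rested on 1 array (6.89) assumed to vary like other groups. At ZT16 the difference of Rpl14 had the opposite sign, -0.53 ± 0.19 (adjusted p = 0.51).

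No daily rhythm was called in the ribosomal protein genes. In WT 0 of 57 were called (limma F test, adjusted), against 6.48% of all genes, and in KO 0, against 2.46%. For the difference of the rhythms 0 were called, against 0.043%. At an unadjusted p under 0.05 there were 1, 0 and 0 members, against 22.6%, 13.8% and 7.78% of all genes. In the same fit, 16 of 17 circadian clock genes were called in WT and 7 in KO. Arntl had an amplitude, from the mean to the peak, of 1.55 in WT and 0.62 in KO. Of the 32 mTOR pathway genes, 4 were called rhythmic in WT (Castor1, Ddit4l, Rragd and Deptor) and 0 in KO. Whether these 4 differ in rhythm between the genotypes was tested in the same fit, and 0 of the 32 passed.

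The member amplitudes were small. They ranged from 0.003 to 0.15 in WT, with a median of 0.05, beside 0.09 over all genes, and from 0.008 to 0.20 in KO, again with a median of 0.05, beside 0.07. Rps4l had the smallest p in WT, with an amplitude of 0.13 ± 0.05 and an adjusted p of 0.20, and it also had the smallest in KO (0.11 ± 0.05, adjusted p = 0.50). Rpl21, Rpl26 and Rpl14 followed in WT, with amplitudes of 0.07 ± 0.04, 0.14 ± 0.08 and 0.15 ± 0.08. In KO the next were Rps2 (0.06 ± 0.03), Rplp0 (0.10 ± 0.05) and Rps18 (0.06 ± 0.03). The difference of rhythms was closest to a call for Rpl21 (0.12, adjusted p = 0.70), Rps18 (0.10), Rps15a (0.13) and Rps2 (0.08). The residual spread in which a wave had to be seen included the pool difference, with a median SD of 0.15 over members and 0.11 over all genes.

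Levels of different probe sets are not compared. Members with probe sets read high on all arrays were Rpl10, Rps2, Rpl21, Rps6 and Rpl9, with 12.51 to 12.79 for Rpl10. Members read near the filter were Rpl10l, Rpl12 and Rplp2, with 4.83 to 5.78 for Rpl10l, a germ-line paralog of Rpl10. RMA compresses differences of such dim probe sets. Neither paralog was called by pool number, at -0.05 ± 0.03 for Rpl10 and -0.14 ± 0.11 for Rpl10l. Further members with a named paralog were called lower in pool 2: Rpl36a (-0.21 ± 0.05), Rpl7 (-0.24 ± 0.06) and Rpl22 (-0.20 ± 0.05).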

How the data were processed

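The authors deposited RMA values on a log2 scale for the probe sets of 22 whole-transcript arrays, as the submitters' processing notes record. The method subtracts background, equalises array distributions by quantiles and summarises probes, so a shift of most genes would be removed. No source used here gives its software version, a genome build or scan days. Of 35556 probe sets, 21789 had 1 symbol in the platform annotation, 1621 several and 12146 none. Genes whose brightest probe set averaged below the 30th percentile of single-symbol probe sets were left out, which left 13967 genes.

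limma 3.58.1 in R 4.3.3 fitted a mean and a 24 h cosine and sine per genotype to all arrays (16 residual degrees of freedom), the same with a pool term (15), and group means for single times (10, where lone pools borrow the spread of the paired ones). A call needed a Benjamini-Hochberg adjusted p under 0.05 over all genes. Errors after ± are the model's standard errors. Only the wave fit with the pool term was run on simulated data, with noise drawn separately for each gene. The fit without that term and the fit of group means were not tested in this way. Members and gene lists were chosen with earlier results of these data known. Named genes were the called members by size (up to 12) or, with fewer than 4 calls, the 4 smallest p, the 5 brightest and 5 dimmest members, reference genes, paralog pairs, Rps6, the stalk proteins, the 5 most similar other genes and up to 3 called genes per list.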

Additional observations from a re-analysis of the deposited data

How the results depend on the processing

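The alternatives were other filters, the mean of all probe sets, array medians subtracted, a pool block, free levels at each time, a trended robust spread, array weights, subsets of arrays and 6 more ribosome-related genes where measured. The 28 calls between pools ranged from 26 to 32 over the alternatives and from 24 to 32 with 1 array left out, and the 12 largest kept their calls in each. Rhythm gave 0 calls in WT, in KO and for their difference under each alternative run. It was not tested with the pool block and without the lone pools together. The 2 calls between genotypes became 1 with free levels, 1 without the KO ZT20 arrays, 1 without the lone pools (chosen after seeing the data), and 0 within pool 1 or pool 2 alone. With 1 array left out they numbered 2 to 4. Rplp0 lost its call only within single pools. At single times the 0 calls became 1 with a trended robust spread (Rplp0 at ZT16), and 0 to 1 with 1 array left out. The share of the first component, 80.1%, was 83.9% with the 50th percentile as filter, 86.5% with free levels, 72.4% and 49.5% within pool 1 and pool 2, and 78.6% to 81.9% with 1 array left out. No direction reversed. Beyond the smaller number of arrays in the subsets, the cause of these changes was not tested.

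The labels do not say whether pool numbers pair the samples. Deviations of arrays with the same number correlated above 0.1 in 25 of 45 pairs of groups (range -0.411 to 0.547), while 19 of 22 arrays correlated best with an array of their own number. With the pool number as a block, the genotype calls numbered 2, and the share of the first component was 58.9%. With the block and without the lone pools, chosen after seeing the data, the calls numbered 3 (Rpl36a added) and the share was 31.8%.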

Other observations

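Rps3a1, a gene of the small subunit whose symbol falls outside the naming rule and which was chosen after its values were seen, differed between pool 2 and pool 1 by -0.42 ± 0.098 (SE; limma adjusted p = 0.021) and was higher in pool 1 in 9 of 10 groups that had both pools. Its KO minus WT difference was 0.17 ± 0.13 (limma adjusted p = 0.45) and was not called.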
